A study of Mus musculus with 10 samples.

Results

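The genes of microtubules, neurofilaments and their motors were followed in the brain of mice that lack Cin85, an adaptor protein encoded by Sh3kbp1. The members were every array probe with a single gene symbol for a tubulin or a protein of the gamma-tubulin complex, a neurofilament protein or alpha-internexin, a kinesin or kinesin light chain, a subunit of dynein or dynactin, a stathmin, or one of the microtubule-associated proteins Map1a, Map1b, Map1s, Map2, Map4, Map6 and Mapt. They came to 77 genes with 121 probes, out of 9930 genes with 14030 such probes and 20355 probes in all. The kinesins held 47 of these probes, dynein and dynactin 29, the tubulins 18, the microtubule-associated proteins 15, the stathmins 6, and the gamma-tubulin complex and the neurofilaments 3 each. The choice was by gene name, made with earlier results of these data known.

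Total RNA of Cin85-/- mice (5 males aged 15 weeks) was set against 1 pool of brain RNA from wildtype males of the same age on two-colour arrays. Each mutant was hybridised on 2 arrays against the pool, once with its own RNA in Cy5 and once in Cy3, which makes 10 arrays. The animals listed for the pool are 5, while the labelling protocol gives another number. The labels state neither the strain background nor how the gene was inactivated, and the source name of the mutant RNA holds an unexplained abbreviation, Kdn, beside titles that name brain. The comparison asks which transcripts of the mutants differ from this single control by more than the mutants differ among themselves, with no measure of the spread between wildtype mice. In whole brain, fewer cells of a type and less RNA per cell cannot be told apart.

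Microtubules are hollow polymers of alpha- and beta-tubulin dimers, nucleated from rings of gamma-tubulin and its complex proteins. In axons they run beside neurofilaments, the intermediate filaments built from a light, a medium and a heavy chain with alpha-internexin, which set axon calibre. Tau and the other microtubule-associated proteins bind and stabilise the polymer, and stathmins bind free tubulin and promote disassembly. Most kinesins walk towards the plus end and carry vesicles, mitochondria and filament subunits out along the axon, while cytoplasmic dynein with its activator dynactin carries endosomes back to the cell body.

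Values given here are the authors' log2 ratios, centred here on the median of each array, and signs are those of the deposited scale, whose numerator the sources used here leave unstated. A trace of how the ratios were recorded was found in the values. On each array the extreme ratio was taken as a cap of 100000 (16.6 in log2), which set a shift for that array. Between 65 and 264 values per array were over 10 in size. They were positive on the 5 arrays with the mutant in Cy5 and negative on the other 5. Once that shift was removed, all values between 0.05 and 0.2 on the 5 arrays with the mutant in Cy5 were ratios of 3 decimals (tolerance 0.0012 in log2), against 30.7% to 45.1% of the inverted values. On the 5 arrays with the mutant in Cy3 the reverse held, with all inverted values and 19.7% to 52.9% of the deposited ones on the 3-decimal steps. The columns of one dye orientation are therefore inverted relative to the recorded ratio and those of the other are not. If the recorded ratio always had the same dye on top, the mean of a mouse's 2 arrays (the pair mean) is the difference between mutant and pool. If it had the same sample on top, the Cy5 array minus the Cy3 array, divided by 2 (the dye term), is that difference. The pair mean is the main value below, and the dye term of the named genes follows at the end of each group as the other reading of the swap. The mean of the pair means and the mean dye term had opposite signs for 28 of the 51 named and tested probes. Within each reading the direction still depends on which dye or which sample was on top. Opposite signs of the 2 values therefore do not give a reversed difference between mutant and pool. Array 6, the array of mouse 3 with the mutant in Cy3, stood apart. It held 16816 values against 18773 to 19424 on the others, its interquartile range was 1.43 against 0.453 to 0.994, and its Spearman correlation with the other arrays lay between -0.074 and 0.064. Without it, arrays of one orientation correlated at 0.17 to 0.41 and arrays of opposite orientation at -0.42 to -0.14. Pair means of mouse 3 rest on array 6, and leaving out that mouse turned the sign of 9 of the 51 named means. Leaving out 1 mouse or another moved the mean by over 1.5 times or turned it for 42 of the 51, so many single means are loosely fixed. Means near 0, such as 0.0011 for Tubgcp3, pass this limit with a small move. The same count over all tested probes was not made.

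No microtubule, neurofilament or motor gene passed the test of the Cin85-/- brains against the pool (limma, Benjamini-Hochberg adjusted p under 0.05 over 16939 probes), with 0 of 105 tested members called in either direction and a smallest adjusted p of 0.911. Tested were probes measured on both arrays in 4 or 5 mice, which left out 16 of the 121. Over all 16939 tested probes, 0% were called. At an unadjusted p under 0.05 there were 6 members, 3 positive and 3 negative, where 3.73% of all tested probes had such a p (632). They were probes of Dynlt1b (2 of 2), Dynll2 (1 of 5), Nefh, Kif20a (1 of 2) and Tubb6. Among the 84 members with pair means from 5 mice, 9 kept 1 sign throughout, while 7.01% of all such probes did. Means were positive for 50 members and negative for 55, with a median of -0.014, against a median of 0.00060 and 50.1% positive over all tested probes. The means of the Cy5 and of the Cy3 arrays had 1 sign for 31 of 105 members and for 29.2% of all tested probes. The shares with a mean above 0 and with 1 sign in both orientations were close to those of all probes.

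**Figure D1:**
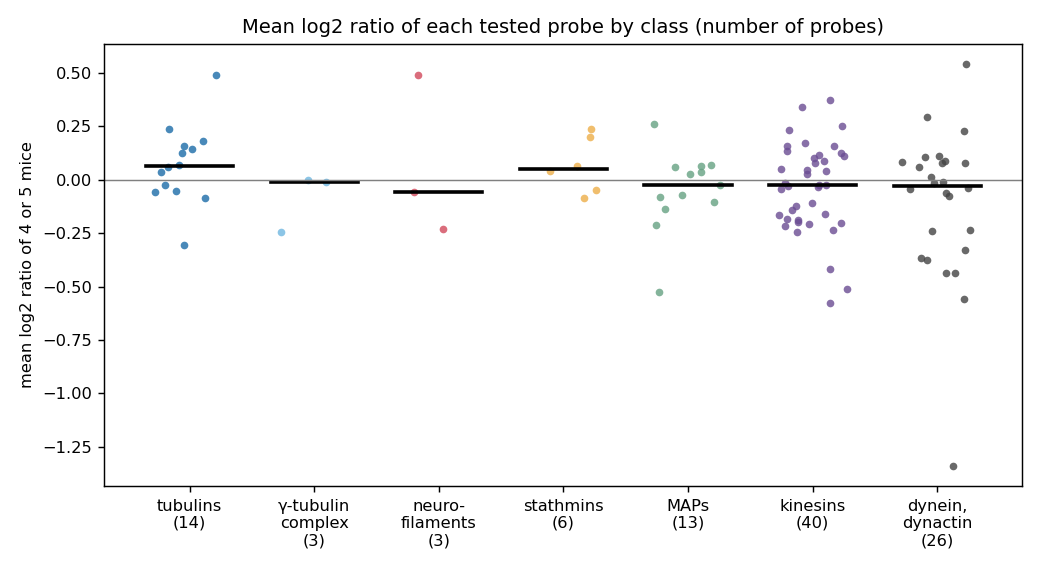
Mean log2 ratio of each of the 105 tested member probes (points, mean of the pair means of 4 or 5 mice) by class, with the class median as a black bar and the number of tested probes in brackets. The class medians lie between -0.057 and 0.065, and single probes spread from -1.34 to 0.54.

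Tubulins had 9 tested probes above 0 and 5 below, with a median of 0.065 over 14 probes for 13 genes. The 5 tested alpha-tubulin probes had a median of 0.062 and the 8 beta-tubulin probes one of 0.098. Tuba1a, the main alpha-tubulin of developing and adult neurons, gave pair means of 0.0095, 0.046, -0.37, 0.041 and 0.16 in mice 1 to 5. Mouse 3 alone was clearly below 0, through -0.77 on array 6, and the other 4 mice lay between 0.0095 and 0.16. Its mean was -0.023 ± 0.21 (SD, n = 5), and 0.065 without mouse 3. Tubb3, the beta-tubulin specific to neurons, gave 0.072, 0.0040, -0.22, 0.022 and -0.15, with mice on both sides of 0 and a mean of -0.054 ± 0.12 (SD, n = 5). The 95% interval of limma ran from -0.28 to 0.17, so a 1.5-fold difference lies outside it, and without mouse 3 the mean was -0.014. The dye terms were 0.099 for Tuba1a and -0.21 for Tubb3.

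Tubb2a and Tubb2b, a near-identical pair of brain beta-tubulins, gave 0.038 ± 0.15 (SD, n = 5) and 0.16 ± 0.30 (SD, n = 5). For Tubb2b the pair means were 0.059, 0.50, -0.25, 0.40 and 0.097, so mice 2 and 4 were high and mouse 3 low. Without mouse 3 the means of Tubb2a and Tubb2b were 0.0064 and 0.26. Tubb4a, the beta-tubulin enriched in oligodendrocytes and mature brain, gave 0.13 ± 0.20 (SD, n = 5) on its tested probe. Tubb5, a beta-tubulin of many cell types, gave pair means of 0.16, 0.032, -0.015, 0.19 and 0.53, positive in 4 mice, with a mean of 0.18 ± 0.21 (SD, n = 5) and an unadjusted p of 0.161 by limma. None of these passed the test. Tubb6, a minor beta-tubulin, had the smallest p among tubulins. With the mutant in Cy5 its ratios in mice 1 to 5 were 0.18, -0.45, 0.26, -0.91 and -0.61, and with the mutant in Cy3 they were 1.79, -0.022, 1.42, 1.29 and 1.97. In all 5 mice the Cy3 array gave the higher value, and the pair means of 0.98, -0.24, 0.84, 0.19 and 0.68 were positive in 4 of 5. The mean was 0.49 ± 0.50 (SD, n = 5), with an unadjusted p of 0.0474 and an adjusted p of 0.911 by limma. On dye terms Tubb2a, Tubb2b, Tubb4a, Tubb5 and Tubb6 gave -0.18, -0.30, -0.32, -0.40 and -0.80, all opposite in sign to their means. Tubulins are close in sequence, the probe sequences are not used here, and how far a probe reads related tubulins was not tested.

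Gamma-tubulin and the proteins that hold it in rings were measured on few probes. Tubg2, the gamma-tubulin enriched in brain, gave -0.31 ± 0.43 (SD, n = 5), with pair means of -0.10, 0.12, -1.01, -0.26 and -0.28. Mouse 3 was lowest, and the mean without it was -0.13. The 2 probes of Tubgcp2 gave -0.0085 ± 0.34 (SD, n = 5) and -0.24 ± 0.86 (SD, n = 5), and Tubgcp3 gave 0.0011 ± 0.19 (SD, n = 5). Both genes encode core proteins of the ring. The mice lay on both sides of 0 on each of these 3 probes, and without mouse 3 the means were 0.074, -0.60 and -0.072. The dye term was 0.16 for Tubg2, -0.24 and -0.99 for Tubgcp2 and 0.51 for Tubgcp3, and the dye median of the 3 gamma-tubulin complex probes was -0.24 against -0.0085 for pair means.

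The neurofilament genes gave 1 mean above 0 and 2 below, and none passed the test. Nefh, which encodes the heavy chain, was positive on 8 of 9 arrays, with 0.51, 0.38, 1.25, 0.23 and 0.87 in mice 1 to 5 with the mutant in Cy5. With the mutant in Cy3 it gave 0.50, 0.22, 0.72 and -0.52 in mice 1, 2, 3 and 5. Mouse 3 was highest on both arrays, and the value below 0 was that of mouse 5 with the mutant in Cy3. The 4 pair means of 0.50, 0.30, 0.99 and 0.17 were all above 0, with a mean of 0.49 ± 0.36 (SD, n = 4), an interval of 0.062 to 0.92, an unadjusted p of 0.0319 and an adjusted p of 0.911 by limma. Leaving out mouse 3 gave a mean of 0.33. Mouse 4 is left out of this fit, since it had 1 array, at 0.23.

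Nefm, the medium chain, lay close to 0, with pair means of 0.022, -0.0095, -0.10, -0.035 and -0.16 and a mean of -0.057 ± 0.074 (SD, n = 5). Its SD was among the smallest of the members, and the interval of -0.27 to 0.15 lay within 1.5-fold on both sides. Ina, which encodes alpha-internexin, gave pair means of -0.52, 0.34, -0.22 and -0.53 in mice 1, 2, 4 and 5, with mouse 2 above 0 and the other 3 below. Its mean was -0.23 ± 0.40 (SD, n = 4), without mouse 3, which had no value on array 6. Nefl, the light chain, was not analysed here. The mean of Nefh lay above and that of Ina below 0, and the difference between these genes was not tested. The dye terms were 0.26 for Nefh, -0.16 for Nefm and 0.18 for Ina. The class median of the dye terms was 0.18, against -0.057 for pair means.

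Stathmins had 4 probes above 0 and 2 below, with a median of 0.052, which was -0.021 without mouse 3 and -0.027 in the fit without array 6. Stmn2, also called SCG10 and found in growing axons, was read by 3 probes with means of 0.064 ± 0.16 (SD, n = 5), 0.24 ± 0.51 (SD, n = 4) and 0.039 ± 0.33 (SD, n = 5). Mouse 3 was highest on each of the 3, and without it they were 0.0065, 0.050 and -0.10. Stmn4 had pair means of 0.022, 0.12, 0.50, 0.20 and 0.18, above 0 in all 5 mice, with a mean of 0.20 ± 0.18 (SD, n = 5) and an unadjusted p of 0.1 by limma. Stmn1, the founding stathmin, gave -0.049 ± 0.15 (SD, n = 4), and Stmn3 gave -0.083 ± 0.18 (SD, n = 5). The stathmin medians of the mice were -0.14, 0.076, 0.50, -0.0045 and 0.045, and that of mouse 3 was far above the others. Without mouse 3 the mean of Stmn4 was 0.13. The dye terms were 0.84 for Stmn1, 0.20, -0.054 and 0.46 for Stmn2, 0.48 for Stmn3 and 0.10 for Stmn4.

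Microtubule-associated proteins gave 6 positive and 7 negative means, with a median of -0.023 and 0 of 13 probes at an unadjusted p under 0.05. Tau, encoded by Mapt and the main such protein of axons, was read by 5 probes with means of 0.059, 0.027, 0.068, -0.080 and 0.065. Means on 4 probes were slightly above 0 and on 1 below, and the SDs over mice, 0.25, 0.21, 0.11, 0.12 and 0.33, were larger than the means. Map2, the protein of dendrites, gave -0.023 ± 0.54 (SD, n = 5), with pair means of 0.059, -0.10, 0.85, -0.53 and -0.39, where mouse 3 was high and mice 4 and 5 low, and the mean without mouse 3 was -0.24. Map1a, of dendrites and mature axons, was below 0 in 4 of 5 mice, at 0.011, -0.33, -0.23, -0.12 and -0.38, with a mean of -0.21 ± 0.16 (SD, n = 5) and an unadjusted p of 0.08 by limma. The 2 tested probes of Map6, which makes microtubules resistant to cold, went opposite ways, at -0.53 ± 0.73 (SD, n = 4) and 0.26 ± 0.41 (SD, n = 5). Without mouse 3 they were -0.34 and 0.083. The 5 Mapt probes without mouse 3 gave -0.0041, 0.12, 0.11, -0.040 and 0.10. Their dye terms were -0.14, -0.23, -0.12, 0.37 and -0.51, each opposite in sign to its mean. For Map2 the dye term was -0.77, for Map1a -0.30 and for the 2 Map6 probes 0.068 and -0.24.

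Kinesins had 18 probes above 0 and 22 below, with a median of -0.025 over 40 probes for 26 genes. The 19 probes of transport kinesins and light chains had a median of -0.024, with 8 above and 11 below 0. Kif5b, the kinesin-1 heavy chain of all tissues, was below 0 on 9 of 10 arrays. Its ratios were -0.12, -0.39, -0.17, -0.67 and -0.58 in mice 1 to 5 with the mutant in Cy5 and -0.0080, -0.17, -0.071, 0.21 and -0.44 with it in Cy3. All 5 pair means were below 0, at -0.067, -0.28, -0.12, -0.23 and -0.51, with a mean of -0.24 ± 0.17 (SD, n = 5), an interval of -0.49 to 0.0094 and an unadjusted p of 0.0567 by limma, so the probe missed even the unadjusted threshold. Its dye term was -0.15, of the same sign.

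The neuronal kinesin-1 heavy chains gave means on both sides of 0. Kif5a gave 0.081 ± 0.30 (SD, n = 5) and -0.024 ± 0.18 (SD, n = 5) on its 2 probes, and Kif5c gave 0.052 ± 0.11 (SD, n = 5) and -0.22 ± 0.26 (SD, n = 5). The light chain Klc1 gave -0.025 ± 0.25 (SD, n = 5), 0.027 ± 0.17 (SD, n = 5) and 0.039 ± 0.41 (SD, n = 4), all within their SD of 0. Kif1a, the kinesin-3 that carries synaptic vesicle precursors, had pair means of -0.071, -0.13, -0.13, -0.088 and -0.11 on 1 probe, all below 0 and close to each other, with a mean of -0.11 ± 0.026 (SD, n = 5). That closeness was not a property of the single arrays, which ran from -0.62 to 0.44. On the second Kif1a probe the mean was -0.20 ± 0.37 (SD, n = 5). Kif1c, a kinesin-3 of Golgi and endosomal traffic, gave -0.51 ± 0.56 (SD, n = 5) on 1 probe, where mice 3 and 4 had -1.04 and -1.18, and 0.11 ± 0.20 (SD, n = 5) on the other. Kif3b, of the kinesin-2 motor of cilia and axons, gave -0.16 ± 0.34 (SD, n = 5) and 0.12 ± 1.06 (SD, n = 4). Without mouse 3 the Kif5a means were -0.032 and -0.086, the Kif5c mean on its first probe 0.026, those of Klc1 0.0047, 0.099 and 0.039, that of Kif1a on its second probe -0.10 and that of Kif3b on its first -0.064. The dye terms were 0.36 and -0.14 for Kif5a, -0.25 and -0.64 for Kif5c, -0.22 and 0.13 for Kif1a and -0.20 for Kif1c on its first probe.

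Mitotic kinesins had a median of 0.11 over 8 probes, with 5 above and 3 below 0. Kif20a, which acts in the midzone of the spindle at cytokinesis, had pair means of 0.50, 0.39, -0.090, 0.53 and 0.38 on 1 probe, 4 above 0 and mouse 3 below. The mean was 0.34 ± 0.25 (SD, n = 5), with an unadjusted p of 0.0304 and an adjusted p of 0.911 by limma, or 0.45 without mouse 3. The second Kif20a probe was below 0 in all 5 mice, at -0.21 ± 0.22 (SD, n = 5). Kif2c, a kinesin that depolymerises microtubules at the centromere, gave 0.086 ± 0.17 (SD, n = 5), and Kif20b gave 0.14 ± 0.15 (SD, n = 5). Kif2c without mouse 3 had a mean of 0.026. The dye terms were -0.24 and 0.25 for Kif20a and 0.53 for Kif2c. Over the 4 tested probes for the dividing-cell markers Pcna (2 probes), Top2a and Cdk1 the median was -0.052, with 2 above and 2 below 0.

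Dynein and dynactin had 11 probes above 0 and 15 below, with a median of -0.027, and held the member with the smallest p. Dynlt1b encodes the light chain of the Tctex1 type, which sits on the intermediate chains of dynein and binds cargo. Its probe 2997 gave -0.37, -0.49, -0.42, -0.36 and -0.11 in mice 1 to 5 with the mutant in Cy5. With the mutant in Cy3 it gave -0.67, -0.38, -0.67, -0.40 and -0.47. All 10 arrays were below 0, in both dye orientations, which held for 0.214% of the probes with 10 values (29 of 13572) and for 1 of 84 such members. The mean was -0.43 ± 0.10 (SD, n = 5), with a 95% interval from -0.65 to -0.21, an unadjusted p of 0.00274 and an adjusted p of 0.911 by limma. This probe ranked 19 by p among the 16939, and it was singled out after the values were seen, so this is a value and not a change. Leaving out each mouse in turn gave means from -0.47 to -0.41.

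The second Dynlt1b probe, 12481, was also below 0 in every mouse, with pair means of -0.30, -0.40, -0.12, -0.19 and -0.18. Its arrays divided by dye. They were -0.71, -0.73, -0.53, -0.35 and -0.17 with the mutant in Cy5 and 0.11, -0.078, 0.29, -0.037 and -0.19 with it in Cy3, so 8 of 10 were below 0 and the Cy3 arrays were near 0 on average (0.019). The dye terms of the probes were 0.084 for 2997 and -0.26 for 12481. Over the 10 arrays the 2 probes had a Spearman correlation of -0.32. The mean was -0.24 ± 0.11 (SD, n = 5), with an unadjusted p of 0.0396 by limma. RefSeq lists 4 protein-coding copies of this gene on mouse chromosome 17 (Dynlt1a, Dynlt1b, Dynlt1c and Dynlt1f, assembly GRCm38.p6), all with the synonym Tctex1. The probe annotation names Dynlt1b alone, and the value may come from any of the copies. Dynlt3, the related light chain encoded elsewhere, gave 0.29 ± 0.42 (SD, n = 5) and -0.060 ± 0.24 (SD, n = 5).

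**Figure D2:**
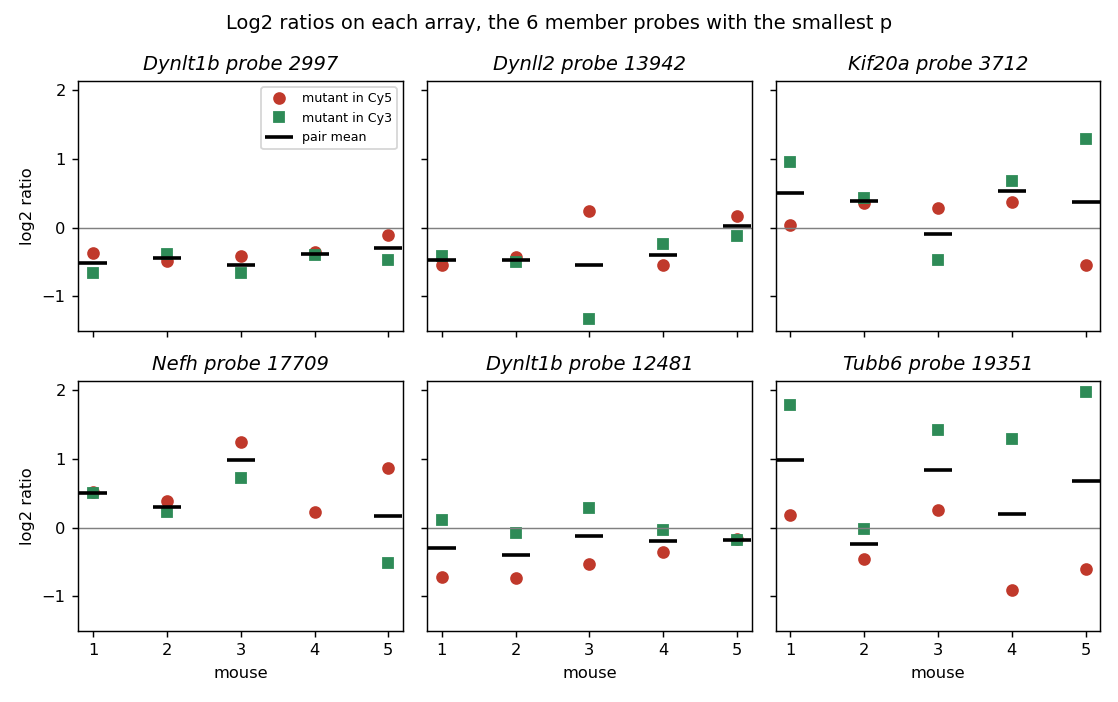
Log2 ratios of the 6 member probes with the smallest unadjusted p on each array, by mouse, with the mutant in Cy5 (circles) or Cy3 (squares) and the pair mean as a black bar. Dynlt1b probe 2997 is below 0 on all 10 arrays, while Tubb6 has a higher value with the mutant in Cy3 in each mouse, and Nefh has no Cy3 value in mouse 4.

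Dynll1 and Dynll2 encode the LC8 light chains, small hubs that also bind many proteins outside dynein. Dynll2 was read by 5 probes. Probe 13942 had pair means of -0.48, -0.47, -0.55, -0.39 and 0.022, below 0 in 4 mice, with a mean of -0.37 ± 0.23 (SD, n = 5) and an unadjusted p of 0.0175 by limma. The other 4 probes gave 0.077, 0.080, -0.040 and 0.086, so the low value was seen on 1 of 5 probes. Dynll1 gave -0.44 ± 0.69 (SD, n = 5), with -1.58 in mouse 5, and the mean without that mouse was -0.15. The heavy chain Dync1h1, the motor subunit, gave 0.11 ± 0.26 (SD, n = 5) on the probe with 10 values. On the other it gave -0.33 ± 1.76 (SD, n = 4), with pair means from -2.28 to 2.00. Without mouse 3 these 2 means were 0.015 and 0.32, and that of Dynll1 was -0.62. The dye terms were 0.15 for Dynll2 probe 13942, -0.40 for Dynll1 and -0.15 and 0.068 for Dync1h1.

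The intermediate chains Dync1i1 and Dync1i2 gave 0.11 ± 0.28 (SD, n = 5) and 0.061 ± 0.57 (SD, n = 4). Among the light intermediate chains, Dync1li1 had the highest mean of all members, 0.54 ± 0.71 (SD, n = 4), with an SD larger than the mean, and Dync1li2 gave -0.042 ± 0.43 (SD, n = 4) and -0.014 ± 0.35 (SD, n = 5). Dynactin was represented by Dctn2, Dctn3, Dctn4 and Dctn6, while the large subunit Dctn1 was not analysed here. Their 6 tested probes had a median of -0.15. Dctn3 gave -0.37 ± 0.40 (SD, n = 5) and Dctn6 gave -0.074 ± 0.18 (SD, n = 5). The 3 probes of Dctn4 were far apart, at 0.23 ± 0.25 (SD, n = 5), -1.34 ± 1.39 (SD, n = 4) and 0.011 ± 0.43 (SD, n = 5). The lowest of these was the lowest mean of all members, with an unadjusted p of 0.0529 by limma and with 0.064 as the mean of its Cy5 arrays against -2.51 for its Cy3 arrays. Without mouse 3 the mean of Dync1li2 on its first probe was -0.17 and that of Dctn4 on probe 17695 -0.14. The dye terms of these probes were 0.87 and 0.63, that of Dync1li1 was 0.48, and the dye median of dynein and dynactin, 0.067, had the opposite sign to that of the pair means.

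Set side by side, the class medians of the pair means lay between -0.057 and 0.065. The SD of a class median over the 5 mice was 0.018 for tubulins, 0.031 for kinesins and 0.080 for microtubule-associated proteins. It was 0.16 for dynein and dynactin, 0.24 for stathmins, 0.24 for the gamma-tubulin complex and 0.27 for neurofilaments. The tubulin median was above this SD and the other class medians were not. All 5 mice share the 1 pool and the same probes, and what these add to a median is not part of this SD. Within the class, the alpha-tubulin median of 0.062 was below its SD of 0.11, and the beta-tubulin median of 0.098 was above its SD of 0.050. With the mutant in Cy5 only the tubulin median was -0.14, and with it in Cy3 only 0.19. Tubulin medians in mice 1 to 5 were 0.051, 0.038, 0.046, 0.056 and 0.086, and kinesin medians were -0.015, -0.052, -0.054, -0.043 and 0.019. The tubulin median was the higher in each mouse, by 0.067, 0.090, 0.10, 0.099 and 0.066, a mean of 0.084 ± 0.017 (SD, n = 5). This is a description of lists chosen by name, with no test, and a median over few probes moves with which probes are present. Dynein and dynactin medians were -0.14, 0.039, 0.22, -0.19 and -0.093, from mouse to mouse on both sides of the tubulins. Neurofilament medians, over at most 3 probes, were 0.022, 0.30, 0.44, -0.13 and -0.16, above the tubulins in 2 mice and below in 3. Over all tested probes the medians were -0.013, 0.0025, 0.025, -0.028 and -0.0030. On dye terms the tubulin medians of the mice were -0.12, -0.030, -0.18, -0.19 and -0.15 and the kinesin medians -0.13, -0.14, -0.017, -0.23 and -0.13, and over the mice they were -0.18 and -0.22. Without mouse 1 the tubulin median of pair means was 0.0975, without mouse 3 it was 0.036 and without mouse 4 it was 0.10. In the fit over arrays without array 6 it was 0.027. The kinesin median without mouse 1 was -0.058.

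**Figure D3:**
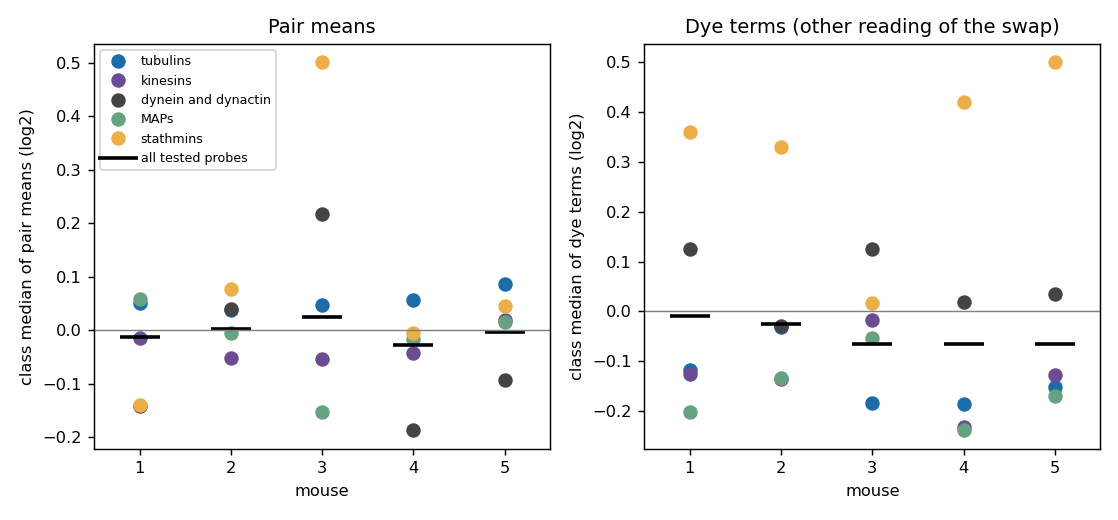
Median over the tested probes of 5 classes (points) and over all tested probes (black bars) in each mouse, on the left for pair means and on the right for dye terms, in log2. Tubulins lie above kinesins in each mouse on the left, and stathmins are high in mouse 3 on the left and above 0 in each mouse on the right.

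The other reading of the swap gave larger values. The dye term exceeded the pair mean in size for 75 of 105 members, as it did for 70.8% of all tested probes. The median size was 0.26 against 0.12 for the members and likewise 0.26 against 0.12 over all tested probes. No member was called on dye terms either (0 of 105, where 0% of all tested probes were called), with a smallest adjusted p of 0.0988 by limma. At an unadjusted p under 0.05 there were 35 members, 19 positive and 16 negative, where 27.6% of all tested probes had such a p. The same sign in all 5 mice was found for 38 of 84 members and for 30.5% of all such probes. There were 44 dye terms above 0 and 61 below among the members, while 43.6% of all tested probes were above 0. The median dye term was -0.14 for the members and -0.064 for all tested probes.

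The smallest p on dye terms among members belonged to Kif3b, with 0.87 ± 0.27 (SD, n = 5). Its ratios were 0.73, 0.57, 0.45, 0.51 and 1.24 with the mutant in Cy5 and -0.75, -0.31, -1.56, -1.53 and -0.99 with it in Cy3. Map2 gave -0.77 ± 0.27 (SD, n = 5), with all Cy5 arrays below and all Cy3 arrays above 0. Both probes are given here for a small p on dye terms, so a gap between the orientations follows from that choice. A dye term of 1 sign in all 5 mice was found for 30.5% of all probes with 5 pairs. Stmn1 gave 0.84 ± 0.30 (SD, n = 4), Dync1li2 gave 0.87 ± 0.22 (SD, n = 4) on 1 probe, and Klc1 gave 0.81 ± 0.32 (SD, n = 4) on 1 of 3 probes and -0.36 and -0.27 on the others. All of these had an adjusted p of 0.0988 to 0.141 by limma. The stathmins were positive on 5 of 6 probes, the kinesins negative on 26 of 40, the beta-tubulins negative on 6 of 8 and the microtubule-associated proteins negative on 11 of 13. For these classes the medians were 0.33, -0.22, -0.26 and -0.27. Alpha-tubulins were positive on 3 of 5 probes, dynein and dynactin on 14 of 26, neurofilaments on 2 of 3 and the gamma-tubulin complex on 1 of 3. Of all tested probes 43.6% were above 0. Probes of 1 gene are counted separately, with 5 for Mapt, 4 for Map4 and 3 for Stmn2. The dyes and the brains cannot be told apart as sources of these values while the recorded numerator is not known. The calls on dye terms depended on the setting. After scaling between arrays 257 probes were called, 4 of them members, and with the 10 arrays as samples, the mouse as a random block and a dye covariate 2054 were, 21 of them members.

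**Figure D4:**
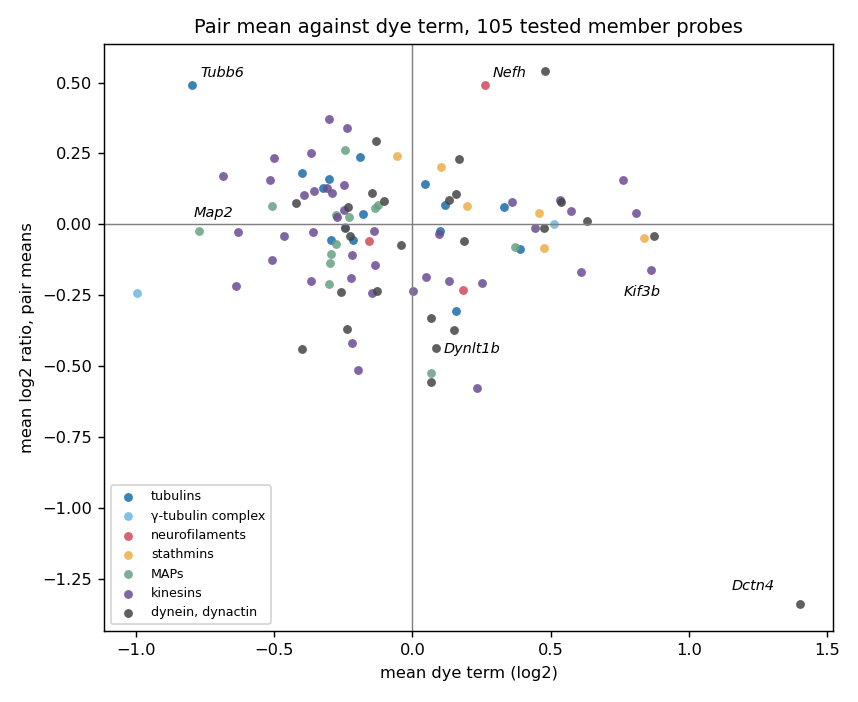
Mean pair mean against mean dye term (both log2) of the 105 tested member probes, coloured by class, with 6 genes named. The points spread more widely along the dye term, and Dynlt1b, on probe 2997, has a mean of -0.43 at a dye term of 0.084.

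Probes of the same gene often differed in sign. Of 22 member genes with several tested probes, 6 had 1 sign over all their probes, namely Dync1li2, Dynlt1b, Kif1a, Kifc3, Stmn2 and Tubgcp2. For the dye term 7 genes did. Of 14 member genes with exactly 2 tested probes 5 had 1 sign, and over all genes of the array with 2 tested probes it was 50.6% (892 of 1764). Over these genes the dye term had 1 sign for 49.7%. The sign of 1 probe was thus met by a second about as often as not over all genes, and the gene names rest on the annotation of the platform. The 4 probes of Map4, a microtubule-associated protein of many tissues, were close on the dye term, from -0.30 to -0.27, and their pair means ran from -0.14 to 0.034.

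**Figure D5:**
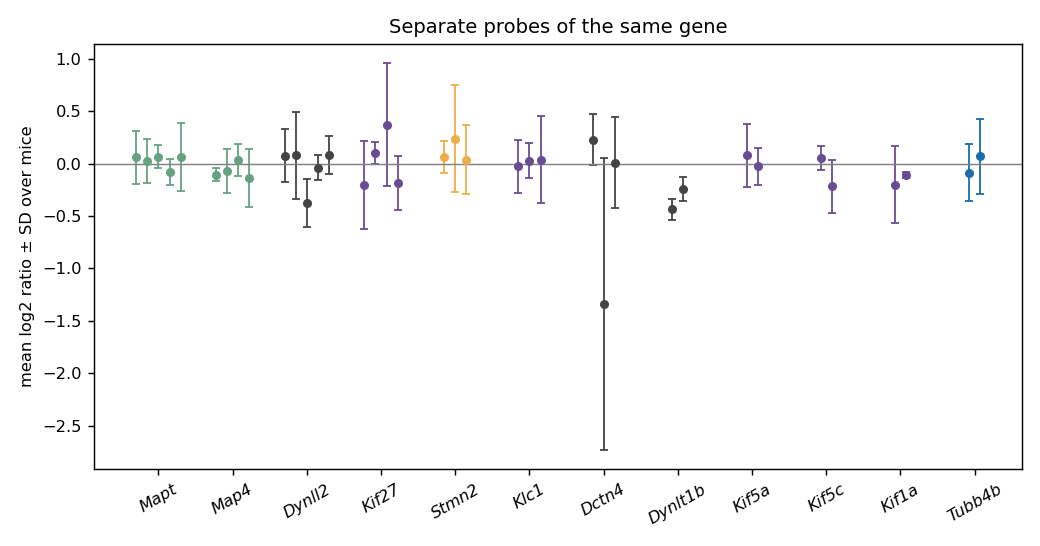
Mean log2 ratio (points) with the SD over 4 or 5 mice (bars) of each tested probe of 12 genes, with the probes of a gene side by side. The 2 Dynlt1b probes are both below 0 by more than their SD, the 5 Mapt probes are all within their SD of 0, and the Dctn4 probes range from -1.34 to 0.23.

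The precision of the arrays bounds what could be seen. The 95% interval of limma lay within 1.5-fold for 71 of 105 members and within 2-fold for 91, where 60.7% and 85.8% of all tested probes did. Within 1.5-fold lay 11 of 14 tubulin probes, 11 of 13 for microtubule-associated proteins, 5 of 6 for stathmins, 27 of 40 for kinesins, 14 of 26 for dynein and dynactin, 2 of 3 for the gamma-tubulin complex and 1 of 3 for neurofilaments. The median SD over mice was 0.26 for the members and 0.34 for all tested probes, and it was lowest for stathmins at 0.18. For Nefm, Tubb3, Tuba1a, Tubb2a and 5 of 5 Mapt probes, pair means beyond 1.5-fold lie outside the interval. On dye terms this held for Nefm, Tubb3, Tuba1a, Tubb2a and 3 of 5 Mapt probes, while the intervals ran from 0.084 to 0.66 on Mapt probe 17308 and from -1.10 to 0.084 on Mapt probe 18876. For Dync1h1 probe 8119, Dctn4 probe 13384 and Map6 probe 15733, pair means beyond 2-fold lie inside the interval. These bounds are differences from the pool only under the reading that makes the value concerned that difference.

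A list of related genes outside the members was also without a call. It held genes that fold, modify, sever or bind tubulin and microtubules, dynein regulators, kinesin adaptors, tau kinases and other intermediate filaments. Of the 74 names on this list 55 had probes, and 82 probes were tested. There were 37 means above 0 and 45 below, with a median of -0.025, 0 called in either direction, and 2 at an unadjusted p under 0.05 (Clip1 and Mapk8ip2), where 3.73% of all tested probes had one. Clip1, which binds growing plus ends, gave -0.50 ± 0.43 (SD, n = 4) on 1 probe and -0.19 ± 0.11 (SD, n = 5) on another, and Mapk8ip2, a kinesin adaptor, gave 0.28 ± 0.19 (SD, n = 5) on 1 of its probes and -0.043 on another. Medians were -0.081 over 10 probes for tubulin folding factors, -0.11 over 11 for tubulin modification and 0.20 over 3 for severing. They were -0.19 over 9 for plus ends, -0.034 over 6 for minus ends and nucleation and 0.014 over 11 for other binders. For dynein regulators such as Pafah1b1 and Ndel1 the median was -0.012 over 13, and for kinesin adaptors 0.056 over 6. Tau kinases had -0.068 over 9 and other intermediate filaments 0.090 over 4. On dye terms 22 of the 82 had an unadjusted p under 0.05, where 27.6% of all tested probes had one, and none was called.

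Markers of cell types were read as ratios, which give no level, so they do not check the tissue itself. Neuron markers had 4 means above 0 and 5 below, with a median of -0.055 and mouse medians from -0.20 in mouse 3 to 0.15 in mouse 4. Oligodendrocyte markers had a median of 0.028 over 6 probes, astrocyte markers -0.026 over 9, microglia markers -0.15 over 3 and kidney markers 0.18 over 5. The choroid plexus markers had the lowest median of these lists, -0.32 over 3 probes for 2 genes. All 3 were below 0, as were the 3 microglia probes. Of the choroid plexus probes 2 had an unadjusted p under 0.05 by limma, where 3.73% of all tested probes had one, and 0 were called. The part of the marked cell types in the values of the members was not tested.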

How the data were processed

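Two-colour arrays were read for 5 Cin85-/- mice against 1 wildtype pool, with a dye swap per mouse. The authors deposited 1 column of log2 ratios per array, and the sources used here state no scanner, background correction or normalization. Per the labels' protocols, RNA was purified on RNeasy columns, checked on a gel and labelled indirectly with Cy3 or Cy5 as cDNA. After removal of a single shift per array, low ratios lay on steps of 3 decimals. Probe names came from the platform annotation, and all 121 members matched RefSeq (GRCm38.p6) by Entrez identifier, with 0 symbols changed.

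Each array was centred on its median, and the 2 arrays of a mouse were averaged, so that the mouse was the replicate. Linear models in limma (version 3.58.1, R 4.3.3; lmFit, eBayes) tested the 5 pair means against 0 over 16939 probes with both arrays of at least 4 mice, with Benjamini-Hochberg adjustment at 0.05. The dye term, the Cy5 minus the Cy3 value divided by 2, was tested in the same way. Extreme ratios were kept. Class medians carry no test. Named were all probes of 24 main neuronal genes and, per class, the 3 probes with the smallest p on pair means and the 2 on dye terms, 54 in all, of which 51 were tested, and other probes were named after their values were seen. The members and lists were chosen with earlier results of these data known. Scripts were tested on simulated data. The alternatives were other scalings, filters, orientations, blocks and omitted mice. The number of arrays limits the precision, and the mice are separate animals by their identifiers. Probe and protein sequences were not used here.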

Additional observations from a re-analysis of the deposited data

Results flagged for a closer look

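For 7 of the 51 named and tested probes, 1 mouse lay apart from the others by more than the limit used for a group of that size, which chance passes in about 1 of 20 groups. In 6 of the 7 it was mouse 3, one of whose arrays is array 6. The named probes, chosen in part by a small p, were the only ones examined. How often a mouse, or mouse 3, lay apart over all tested probes was not counted, so these counts are not particular to the members. Tuba1a had -0.37 in mouse 3 against 0.0095 to 0.16 in the others. Stmn2, on probe 19984, had 0.61 in mouse 3 against -0.17 to 0.047 in the others, and Map6, on probe 16000, had 0.98 in mouse 3 against 0.011 to 0.22 in the others. Mapt, on probe 11493, had -0.34 in mouse 3 against 0.048 to 0.18 in the others, Klc1, on probe 16769, had -0.26 in mouse 3 against 0.052 to 0.18 in the others, and Kif20a, on probe 3712, had -0.090 in mouse 3 against 0.38 to 0.53 in the others. The exception was Dynll2, on probe 13942, with 0.022 in mouse 5 against -0.55 to -0.39 in the others. On array 6 the values were -0.77 for Tuba1a, 0.75 for Stmn2, 1.85 for Map6, -0.38 for Mapt, -0.073 for Klc1 and -0.47 for Kif20a. On the other array of mouse 3 they were 0.024, 0.47, 0.11, -0.30, -0.45 and 0.29, in the same order.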

How the results depend on the processing

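In the deposited direction, 0 probes and 0 members were called by limma under every alternative run. At an unadjusted p under 0.05 there were 496 to 945 probes and 3 to 10 members in the fits that use both orientations, 5055 and 38 with the mutant in Cy5 only, and 2237 and 25 with it in Cy3 only. On dye terms the count of all probes was 257 after scaling between arrays, 4 without variance moderation, 2054 with all 10 arrays, the mouse as a random block and a dye covariate, and 4312 in the same fit without array 6 (chosen after seeing the data). Members called were 4, 0, 21 and 35 in these fits. In the fits with a random block and a dye covariate the within-mouse correlation was -0.02 and -0.076, so they treat the arrays almost as independent samples. The fit with a random block and no covariate, which gives no dye term, had a correlation of -0.24. Leaving out each mouse gave 0 to 1 probes and 0 members on dye terms. With the mutant in Cy5 only, the class medians were -0.14, -0.14, -0.25, -0.18, 0.35 and -0.29 for all members, tubulins, the gamma-tubulin complex, kinesins, stathmins and microtubule-associated proteins. With the mutant in Cy3 only they were 0.060, 0.19, 0.24, 0.11, -0.28 and 0.19 in the same order. Under the other reading they were -0.14, -0.18, -0.22, 0.33 and -0.27 without the gamma-tubulin complex, which was at -0.24. The medians of neurofilaments and of dynein and dynactin were then 0.18 and 0.067, each within 1 SD over mice. The tubulin median was 0.027 without array 6 in the fit over arrays. Leaving out each mouse in turn, the medians ran from -0.031 to -0.0015 for all members, 0.036 to 0.10 for tubulins, -0.11 to -0.0015 for the gamma-tubulin complex, -0.077 to -0.031 for neurofilaments, -0.058 to -0.0084 for kinesins, -0.065 to -0.0084 for dynein and dynactin, -0.021 to 0.10 for stathmins and -0.055 to 0.021 for microtubule-associated proteins. Other class medians moved by less than 1 SD over mice under no centring, scaling, missing extreme ratios, both filters, gene averages and the most complete probe. Of the 51 named means, 28 had the opposite sign under the other reading, 18 in each single orientation, and 9, 7, 5, 2 and 1 without mouse 3, 5, 4, 1 and 2. The cause of these moves was not tested. No paired analysis was possible because the series has 1 group of mice against 1 pool. Without channel intensities the signal over background is unknown.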

Other observations

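Of the 121 member probes, 16 had too few pairs of arrays to be tested, with values on 2 to 8 arrays each. They belong to Dctn2, Dync2h1, Dync2li1, Kif13a, Kif17, Kif1b, Kif22, Kif2c, Kifc5c-ps, Klc4, Map1b (2 probes), Tuba1c, Tuba8, Tubb4a and Tubg1. Map1b, a microtubule-associated protein of growing axons, is thus without a tested probe. Its probe 16474 had values on 6 arrays, which were 1.66, -0.75 and 0.45 with the mutant in Cy5 (mice 1, 2 and 5) and 2.64, -0.79 and -2.67 with it in Cy3 (mice 2, 4 and 5). Kif1b, a kinesin-3 of mitochondria and vesicles, had -1.72, -0.61, -1.65 and 1.69 with the mutant in Cy5 (mice 1, 2, 3 and 5) and -2.95, -3.52 and -1.79 with it in Cy3 (mice 1, 2 and 4). That is below 0 on 6 of 7 arrays, with both arrays present in mice 1 and 2, and it was noticed after the values were seen.

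Kif17, a kinesin-2 of dendrites, had -1.27, 0.75 and -2.78 with the mutant in Cy5 (mice 1, 2 and 3) and 1.44, -0.73 and 3.24 with it in Cy3 (mice 1, 2 and 5), in no common direction. Extreme ratios occurred once each in Dync2h1, Kif22, Map1b and Tuba1c, 4 values of 1124, and 11 values of the members equalled a recorded ratio of 1 (tolerance 0.0011 in log2). These 4 probes were among those not tested. The ciliary dynein-2 was left with 1 tested probe, of Dync2li1, at -0.56 ± 0.98 (SD, n = 4).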
